A study of Arabidopsis thaliana with 15 samples.

Results

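Whole Arabidopsis thaliana seedlings that had spent 2 h in liquid medium with solvent were compared with seedlings of the solvent start point, 0 h, over all genes with at least 1 RPKM, a read count scaled by gene length and library depth, in at least 3 of these 6 libraries. The rule kept 18647 genes, 57.1% of the 32678 named genes. Among them 71 were at 1 RPKM or more in all 2 h libraries and in no 0 h library, and 46 in all 0 h libraries and in no 2 h library; such genes had to differ in that direction, so their differences are a description, and they are pointed out where named. Just inside it lay 271 genes with 1 RPKM in exactly 3 libraries (median level 1.02 RPKM) and just outside it 232 genes with 1 RPKM in exactly 2 (median 0.909 RPKM). Both groups had 3 libraries each. They were wild type of the Col ecotype, aged 10 days and grown on half-strength MS agar with 1.0% sucrose at 21 °C in days of 16 h light and 8 h dark, then moved to liquid half-strength MS for an adjustment of 2 h. The 2 h group was then kept with solvent for 2 h, and the 0 h group was taken at the start. The full series had 15 libraries, with solvent at 4 h and 5 µM GR24 4DO, a synthetic strigolactone, at 2 h and 4 h as the other groups, whose levels are given below without a test. The labels do not name the solvent or the hour of day, so the time in liquid and the time of day cannot be told apart. Nor do they tell whether each replicate was grown on its own, and the p-values rest on the spread between libraries, which may be technical.

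Many plant transcripts follow the day. The circadian clock of Arabidopsis is a loop of repressors: the MYB factors CCA1 and LHY peak at dawn and hold down evening genes, the pseudo-response regulators PRR9, PRR7, PRR5 and TOC1 follow through the day and hold down CCA1 and LHY, and the evening complex of ELF3, ELF4 and LUX acts around dusk. Genes of light harvesting, of the cold and heat responses and of growth hormones are known to follow the clock and the surroundings alike.

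Depth was 24.8 to 37.4 M reads in the 2 h libraries and 24.4 to 33.4 M reads in the 0 h libraries (1 M is 1e6). Between 0.744% and 0.832% of reads at 2 h fell on 18S rRNA genes, against 0.504% to 0.989% at 0 h. Replicates 2 and 3 at 2 h were nearly alike, with a chi-square of 1.71 per degree of freedom over genes, against 11.5 to 18.6 for the other pairs within these groups, and replicate 1 at 2 h stood apart from both. With these and the other near-alike pairs of the series averaged, 3453 genes were called in place of the 5477 below. Shoot and root marker genes checked the label of whole seedlings: 25 of 29 shoot markers and 20 of 30 root markers were at 1 RPKM or more in all 6 libraries.

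The change over 2 h was broad and mostly small. With a limma fit of log2(RPKM + 1) and a Benjamini-Hochberg adjusted p under 0.05, 5477 of 18647 genes were called, 29.4% of those tested: 3632 were higher at 2 h (19.5%) and 1845 were lower (9.89%). The median difference over all genes tested was 0.07 on the log2 scale and the median standard error 0.09. Libraries of the 2 groups did not overlap for 6871 genes, 36.8% of those tested. The split between directions depends on scaling: with median-of-ratios scaling 2177 genes were higher and 2609 lower, and with quantile normalization 2585 were higher and 2557 lower. The share of reads on light-harvesting and Rubisco genes moved with the groups, at 4.87% to 5.17% at 2 h against 8.07% to 9.58% at 0 h, and its part in the split was not tested. Called genes that were higher had a median counted length of 1632 bases, those lower 1292 bases and all genes tested 1518 bases.

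In whole seedlings, fewer cells of a type and less RNA per cell cannot be told apart, here and in all that follows. In all, 170 called genes differed by 2-fold or more: 76 were higher at 2 h (0.408% of genes tested) and 94 lower (0.504%). The median difference was 1.26 among the 76 and -1.19 among the 94. Libraries of the 2 groups did not overlap for any of them, which picking called genes by size favours. Of the 76, 4 were kept for testing through their 2 h libraries alone, and of the 94, 8 through their 0 h libraries alone. The other 72 and 86 had medians of 1.27 and -1.19. RefSeq gives only a locus name to 37 of the 76 and to 24 of the 94. Because 1 is added to each RPKM, these differences understate the change of genes with low levels. With 0.1 added in its place, 134 genes were called 2-fold higher and 149 lower.

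The highest difference belonged to AT1G07050, a gene for a protein with a CCT motif, the DNA-binding motif shared by CONSTANS and TOC1. It had 50.07, 50.04 and 50.96 RPKM at 2 h, against 3.76, 3.29 and 4.21 RPKM at 0 h. The groups lay far apart, with a log2 difference of 3.44 ± 0.07 (SE) and a limma adjusted p of 1.8e-14. JMJD5, also known as JMJ30, a Jumonji-domain protein linked to the clock, had 18.1, 19.0 and 17.8 RPKM at 2 h, against 1.73, 1.62 and 1.85 RPKM at 0 h. Its log2 difference was 2.82 ± 0.06 (limma adjusted p = 1.8e-14), and it averaged 46.8 ± 2.07 RPKM in the solvent libraries of 4 h (SD, n = 3). AT5G23240, a DnaJ-domain protein, had 17.5, 20.1 and 21.6 RPKM at 2 h, against 2.20, 2.65 and 2.60 RPKM at 0 h. The next were COR27, RD29A, AT1G51090 (heavy metal transport family), AT1G68500 (uncharacterized), AT4G35655 (RIN4 family), COR15B, ELF4, AT5G62360 (pectin methylesterase inhibitor family) and AT5G47330 (alpha/beta hydrolase family), with log2 differences of 2.52 down to 1.97. AT4G35655 rested on 8, 1 and 2 reads at 0 h, so its size is poorly known.

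Among the 12 lowest were 5 genes of the major light-harvesting antenna and LNK2 of the clock, described below. The others were THI2.2, a thionin (small antimicrobial peptide), CIPK20, a kinase that works with calcium sensors, BBX28 and BBX16, B-box zinc finger proteins of the light-response family, AT1G64500, a glutaredoxin family protein, and SEN1, a gene induced by darkness and senescence. BBX28 had 17.4, 16.4 and 16.4 RPKM at 2 h, against 63.7, 58.9 and 59.5 RPKM at 0 h, a log2 difference of -1.80 ± 0.06 (limma adjusted p = 2.2e-12). BBX16 was at 0.962, 0.735 and 0.883 RPKM at 2 h, against 4.89, 5.24 and 5.03 RPKM at 0 h. BBX16 was under 1 RPKM in every 2 h library and was kept for testing through its 0 h libraries alone.

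**Figure D1:**
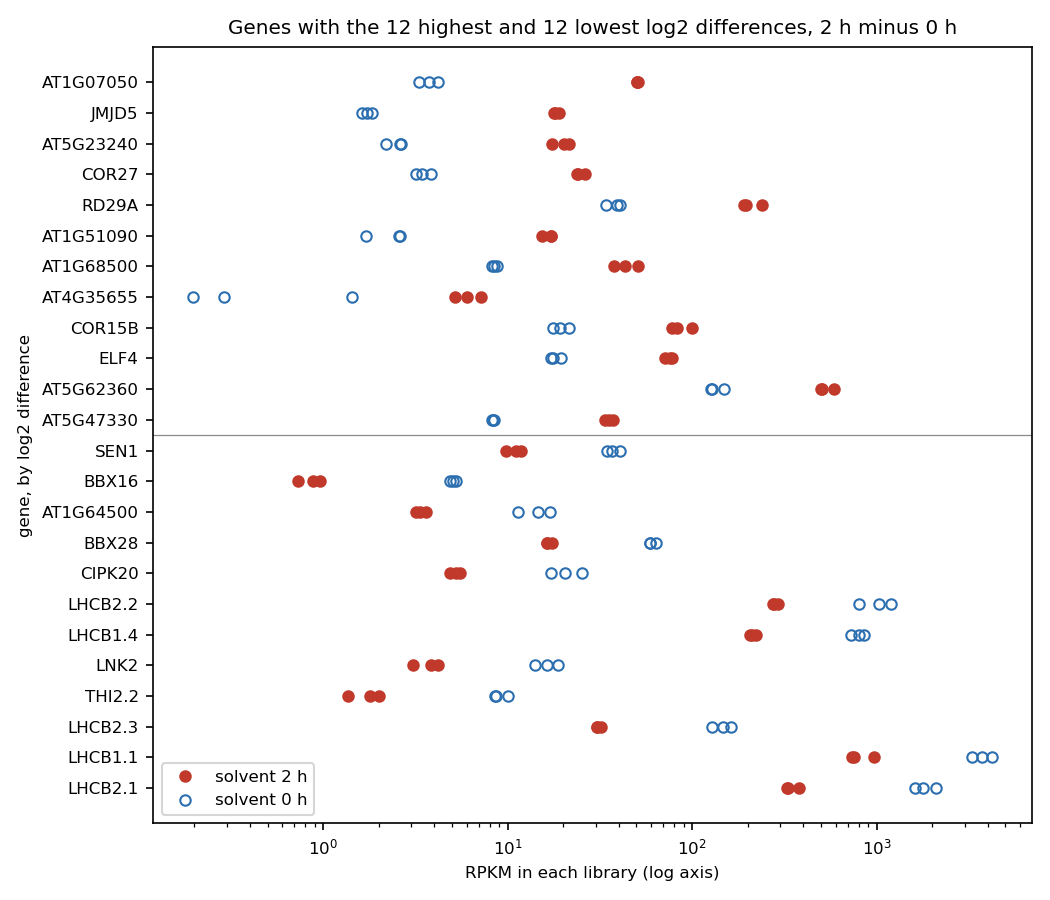
Levels of the 12 genes with the highest and the 12 with the lowest log2 differences, in RPKM on a log axis; each filled point is a solvent 2 h library and each open point a solvent 0 h library. Genes were picked from those whose groups do not overlap, and AT1G07050, at 50.04 to 50.96 RPKM at 2 h against 3.29 to 4.21 RPKM at 0 h, has the widest gap on the log2(RPKM + 1) scale.

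The clock genes split by their known phase. Of 15 morning-phased genes, 12 were lower at 2 h and 1 higher, with a median log2 difference of -1.07. CCA1, LHY, PRR9 and RVE8 on this list reached 1 RPKM at 0 h alone; of the other 11, 8 were lower and 1 higher, with a median of -0.67. Of 14 afternoon and evening genes, 10 were higher and 0 lower, with a median of 0.92. The other 4 of these, PRR5, ZTL, LKP2 and CHE, were not called. CHE, a repressor of CCA1, differed by -0.10 ± 0.08 and was called lower without replicate 2 of 0 h (limma adjusted p = 0.031). Over all genes tested 19.5% were higher and 9.89% lower.

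CCA1, a dawn repressor, had 0.378, 0.410 and 0.342 RPKM at 2 h, against 2.18, 2.74 and 2.75 RPKM at 0 h. Its partner LHY had 0.249, 0.198 and 0.237 RPKM at 2 h, against 1.45, 1.57 and 1.73 RPKM at 0 h. Both were low already at 0 h and under 1 RPKM in every 2 h library, and the ratio of mean RPKM at 0 h to that at 2 h was 6.79 for CCA1 and 6.95 for LHY. The log2 differences were -1.37 ± 0.10 for CCA1 (limma adjusted p = 5.8e-08) and -1.07 ± 0.08 for LHY (limma adjusted p = 9.0e-08). Their relatives RVE4 and RVE8, MYB factors that activate afternoon and evening genes, fell by 1.09 and 1.12 on the log2 scale, whereas RVE6 of the same small group had 6.73, 6.45 and 6.49 RPKM at 2 h, against 5.94, 6.10 and 6.99 RPKM at 0 h, with no call. RVE2 went the other way from the other called genes of the morning list, with a log2 difference of 0.97 ± 0.08 (limma adjusted p = 2.6e-07). It had 8.75, 7.55 and 8.04 RPKM at 2 h, against 3.28, 3.72 and 3.97 RPKM at 0 h.

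LNK2, one of the coactivators that work with the RVE factors, had 3.07, 3.84 and 4.22 RPKM at 2 h, against 14.02, 18.7 and 16.5 RPKM at 0 h, a log2 difference of -1.88 ± 0.12 (limma adjusted p = 8.2e-09). LNK3 and LNK4 fell by 1.61 and 1.23 on the log2 scale, and LNK1 by 0.67. CDF1, a repressor of flowering genes, fell by 0.80.

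Of the pseudo-response regulators, PRR9, which peaks early in the day, had 0.353, 0.278 and 0.191 RPKM at 2 h, against 1.41, 2.33 and 1.39 RPKM at 0 h, a log2 difference of -1.07 ± 0.12, and was kept for testing through its 0 h libraries alone. PRR7 differed by -0.45 ± 0.13 (limma adjusted p = 0.014), a call that was lost without replicate 2 of 0 h (limma adjusted p = 0.065) and with near-alike replicates averaged (limma adjusted p = 0.051). PRR5 had 17.4, 20.1 and 20.7 RPKM at 2 h, against 17.2, 20.5 and 19.7 RPKM at 0 h, and its groups overlapped (0.02 ± 0.07). TOC1, which peaks in the evening, had 41.2, 44.9 and 47.6 RPKM at 2 h, against 17.9, 19.7 and 19.9 RPKM at 0 h, a log2 difference of 1.17 ± 0.06 (limma adjusted p = 6.5e-10). PRR3, which stabilises TOC1, was higher by 1.32 ± 0.15.

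The 3 genes of the evening complex all rose. ELF4 had 71.3, 78.1 and 75.7 RPKM at 2 h, against 19.5, 17.2 and 17.6 RPKM at 0 h (1.99 ± 0.06, limma adjusted p = 2.2e-12). LUX, its DNA-binding member, had 73.6, 75.1 and 75.7 RPKM at 2 h, against 43.5, 44.9 and 41.4 RPKM at 0 h (0.78 ± 0.05). ELF3 was higher by 0.65 ± 0.12, and BOA, the close relative of LUX, by 1.06 ± 0.09. COR27, a night-phased repressor of clock genes that is also induced by cold, had 26.2, 24.1 and 23.9 RPKM at 2 h, against 3.83, 3.19 and 3.45 RPKM at 0 h. It and its relative COR28 were higher by 2.52 ± 0.06 and 1.35 ± 0.08. The blue-light F-box gene FKF1 rose by 1.14 and its partner GI by 0.51, while the relatives ZTL and LKP2 differed by -0.10 and 0.03 with no call.

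At 4 h in solvent CCA1 averaged 0.0633 ± 0.0148 RPKM and LNK2 0.851 ± 0.172 RPKM (SD, n = 3 each), both under their 2 h levels. PRR5, level between 0 h and 2 h, averaged 7.56 RPKM in the 4 h libraries, and FKF1 12.4 RPKM. In seedlings given GR24 4DO for 2 h, TOC1 averaged 44.1 ± 0.583 RPKM, ELF4 84.2 ± 5.58 RPKM and CCA1 0.414 ± 0.162 RPKM (SD, n = 3 each), side by side with 44.6 ± 3.20, 75.1 ± 3.42 and 0.377 ± 0.0341 RPKM in solvent for 2 h.

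**Figure D2:**
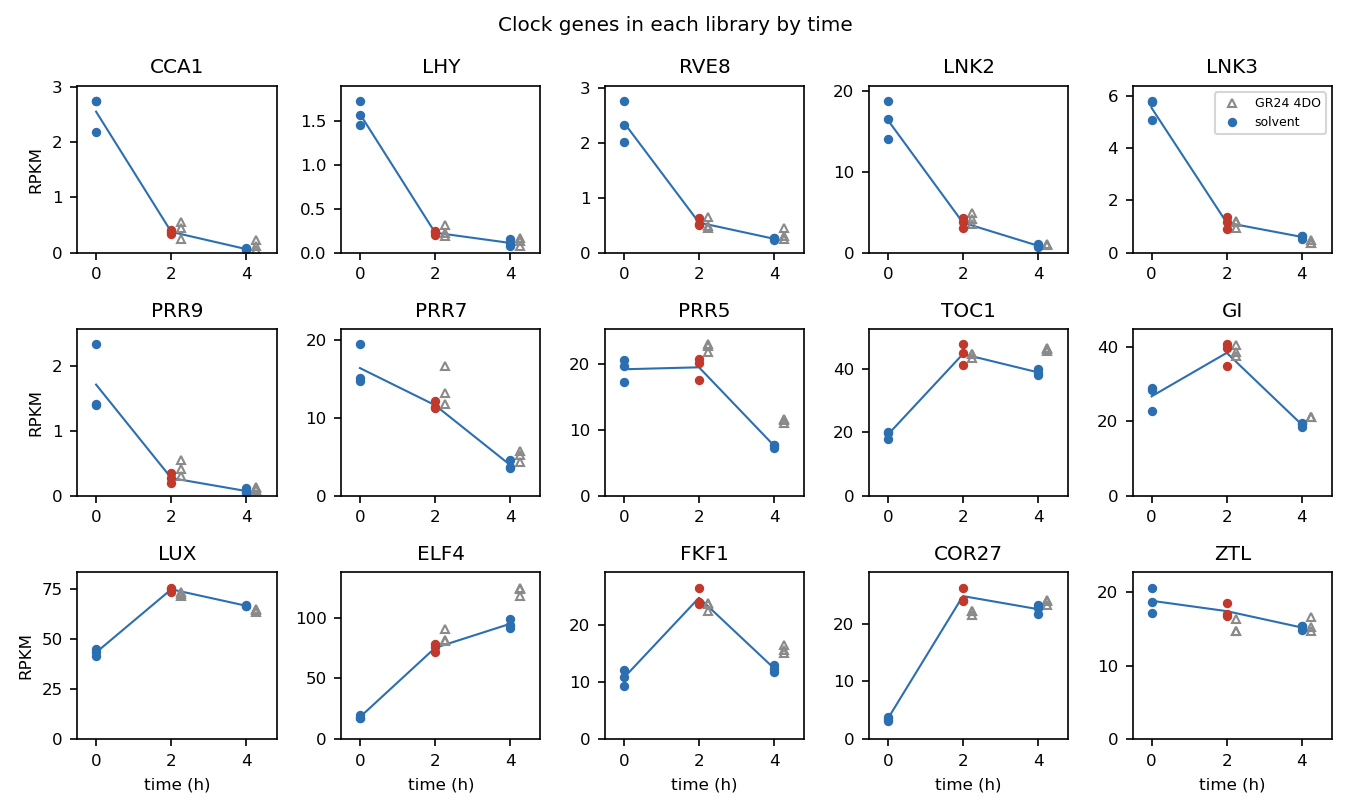
RPKM of 15 clock genes in each library against time in hours, with solvent libraries as filled circles (those of 2 h in red), their means joined by a line, and GR24 4DO libraries as open triangles drawn slightly to the right. CCA1, LHY and the LNK genes drop by 2 h, PRR5 is level at 2 h, and TOC1, LUX, ELF4 and COR27 are higher at 2 h than at 0 h.

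Clock factors of the CCA1 family bind the evening element, AAATATCT, in evening genes, and promoters of clock genes that moved are shown here for that reason, with the letters of the motif in capitals on either strand. Each is the run of 250 bases before the gene's annotated start in the RefSeq annotation of TAIR10.1, written 5′ to 3′ in the gene's direction.
TOC1 (chr5:24674713-24674962, plus strand): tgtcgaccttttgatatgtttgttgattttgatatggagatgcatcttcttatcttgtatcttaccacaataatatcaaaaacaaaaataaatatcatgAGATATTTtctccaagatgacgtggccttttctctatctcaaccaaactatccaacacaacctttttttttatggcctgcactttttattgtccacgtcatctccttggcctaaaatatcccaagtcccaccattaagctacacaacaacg
LUX (chr3:17182792-17183041, plus strand): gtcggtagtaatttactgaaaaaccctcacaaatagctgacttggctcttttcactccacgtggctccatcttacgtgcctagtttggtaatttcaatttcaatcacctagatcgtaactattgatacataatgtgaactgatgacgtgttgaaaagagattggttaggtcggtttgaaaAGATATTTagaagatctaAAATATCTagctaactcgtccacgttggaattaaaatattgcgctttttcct
TOC1 held 1 evening element in these 250 bases and LUX 2. PRR5 and RVE7, clock genes that were not called, also held 1 each before their starts.

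Among genes that fell, LHY held a G-box, CACGTG, the site of basic leucine zipper and helix-loop-helix factors of light signalling, and the antenna gene LHCB2.3 held TATCCA, a sequence known from sugar-responsive promoters. Their promoters follow with those letters in capitals.
LHY (chr1:37872-38121, minus strand): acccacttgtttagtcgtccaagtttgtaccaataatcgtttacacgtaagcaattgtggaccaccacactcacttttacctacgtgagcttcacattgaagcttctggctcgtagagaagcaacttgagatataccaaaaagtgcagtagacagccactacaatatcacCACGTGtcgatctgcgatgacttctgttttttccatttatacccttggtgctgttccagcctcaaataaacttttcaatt
LHCB2.3 (chr3:10255656-10255905, plus strand): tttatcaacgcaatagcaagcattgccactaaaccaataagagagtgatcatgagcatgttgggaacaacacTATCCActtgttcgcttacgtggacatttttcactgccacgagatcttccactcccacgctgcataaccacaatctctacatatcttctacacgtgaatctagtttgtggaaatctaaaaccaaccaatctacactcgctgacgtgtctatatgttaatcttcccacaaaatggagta
Other motifs in these runs are left in lower case. TATCCA also lies in the run of TOC1 and a G-box in that of LUX, both genes that rose.

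Over all tested genes with a nuclear promoter, windows of 250 bases before to 50 after the start were searched on both strands for 10 motifs. The evening element was in 25 of 76 windows of genes at least 2-fold higher (32.9%), 8 of 94 windows of genes at least 2-fold lower (8.51%) and 5.99% of all 18631 windows. Among all called genes its shares were closer, at 8.29% of windows of genes called higher and 5.8% of those called lower. The G-box was in 22 of 94 windows of 2-fold lower genes (23.4%), 6 of 76 of 2-fold higher genes (7.89%) and 8.69% of all. In all genes called lower it was in 11.9%, and in those called higher 7.99%. TATCCA was in 42.6% of the windows of 2-fold lower genes, 22.4% of those of 2-fold higher genes and 16.5% of all. For all genes called lower the share was 23.5%, and for those called higher 15.6%. Over all called genes, the telo-box AAACCCTA, known from genes of the translation machinery, was in 9.89% of windows of genes called higher, 1.79% of those called lower and 5.57% of all. Site II, TGGGCC, another element of such genes, was in 22.6% of windows of genes called higher and 11.4% of those called lower, against 19.0% of all. The 2-fold higher genes were below the share of all for both, at 3.95% for the telo-box and 13.2% for site II. Windows of 2-fold lower genes had 1.06% and 9.57%. The CCA1-binding site AAAAATCT, a different word of the same length, was in 7.89% of windows of 2-fold higher genes, 11.7% of those of 2-fold lower genes and 8.07% of all. The other motifs, the W-box TTGAC, the heat shock element core GAANNTTC, CGCGTT and the GCC-box GCCGCC, were in 48.7%, 13.2%, 3.95% and 2.63% of windows of 2-fold higher genes, 43.6%, 7.45%, 5.32% and 0% of those of 2-fold lower genes, and 51.1%, 11.3%, 3.74% and 2.72% of all. The G-box and the heat shock core read the same on both strands. These shares describe letters in the windows, and neighbouring or duplicated genes can share them.

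**Figure D3:**
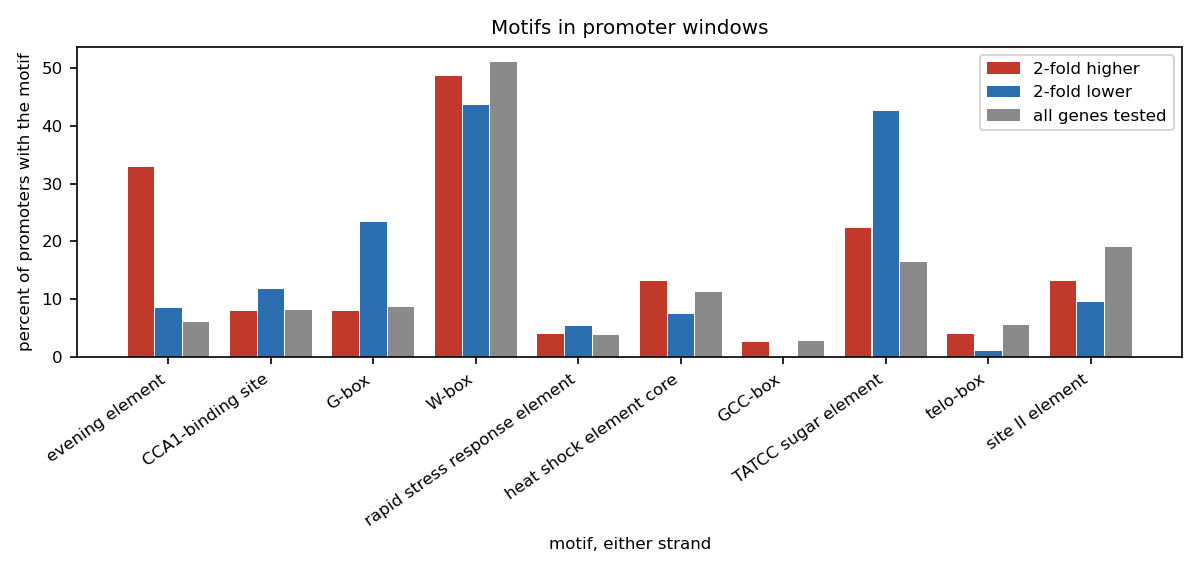
Percent of promoter windows with each of 10 motifs on either strand, for genes called at least 2-fold higher at 2 h, at least 2-fold lower, and all genes tested. The evening element stands at 32.9% in the 2-fold higher genes against 5.99% of all, and the G-box and TATCCA at 23.4% and 42.6% in the 2-fold lower genes against 8.69% and 16.5% of all.

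Genes of the light-harvesting antenna fell together. The antenna proteins bind chlorophyll around the photosystems, LHCB proteins at photosystem II and LHCA proteins at photosystem I, and the RBCS genes encode the small subunit of Rubisco, which fixes CO2. Of 24 such genes, 23 were lower at 2 h and 0 higher, 12 of them by 2-fold or more, with a median log2 difference of -1.04. Among all genes tested 9.89% were called lower, and 0.504% by 2-fold or more, while 19.5% were called higher. LHCB2.1 had 379, 333 and 325 RPKM at 2 h, against 2090, 1611 and 1796 RPKM at 0 h, and the 0 h level was 5.30 times that at 2 h (log2 difference -2.40 ± 0.09, limma adjusted p = 1.3e-11). LHCB1.1 had 968, 752 and 737 RPKM at 2 h, against 4230, 3293 and 3753 RPKM at 0 h (-2.20 ± 0.11). LHCB2.3, LHCB1.4, LHCB2.2 and LHCB3 fell by 2.19, 1.88, 1.81 and 1.40 on the log2 scale. The groups did not overlap in any of these genes, nor in 36.8% of all genes tested.

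Members of the antenna differed among themselves. The most abundant, LHCB1.3, had a mean of 9679 ± 651 RPKM at 2 h, against 14061 ± 1504 RPKM at 0 h (SD, n = 3 each), a log2 difference of -0.54 ± 0.10, while LHCB1.4, a relative of the same subgroup, fell by 1.88. Near-identical LHCB1 and LHCB2 copies may share or lose reads in counting, so differences between copies are uncertain. Photosystem I antenna genes LHCA1 and LHCA4 fell by 1.27 and 1.28, and LHCA5 and LHCA6, which are minor, by 0.62 and 0.60. Of the Rubisco genes, RBCS2B, RBCS3B and RBCS1A fell by 0.69, 0.59 and 0.40, and RBCS1B had a mean of 664 ± 68.0 RPKM at 2 h, against 635 ± 135 RPKM at 0 h, with no call. Quantile normalization, which sets the values at the top of every library equal by rank, ended the calls of the 3 most abundant genes: LHCB1.3 and RBCS1A then differed by 0 and RBCS3B by 0.12 (limma adjusted p = 0.281). RBCS1A was also not called in a fit of the 6 libraries alone (limma adjusted p = 0.052). In the 4 h solvent libraries LHCB2.1 averaged 63.1 ± 2.54 RPKM and LHCB3 259 ± 2.47 RPKM.

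**Figure D4:**
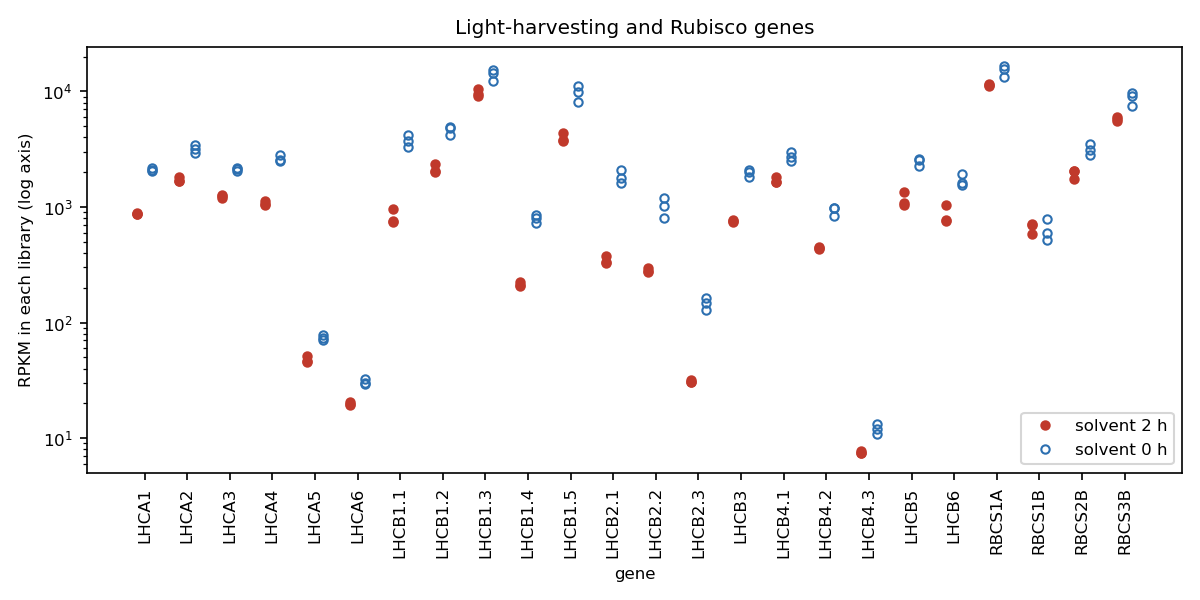
RPKM in each library, on a log axis, of the 24 light-harvesting and Rubisco genes, with solvent 2 h libraries as filled points on the left and solvent 0 h libraries as open points on the right of each gene. The 2 h points lie below the 0 h points except in RBCS1B, whose groups overlap.

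Chlorophyll and carotenoid synthesis moved the same way in part: of 27 genes, 13 were lower and 2 higher, with a median of -0.21. The count of lower genes fell to 8 with near-alike replicates averaged, and to 8 without replicate 2 of either group. GUN5, a subunit of the magnesium chelatase that commits the pathway to chlorophyll, had 56.0, 58.9 and 60.3 RPKM at 2 h, against 109, 148 and 130 RPKM at 0 h (-1.12 ± 0.08, limma adjusted p = 4.2e-08). CRD1, a later step, and HEMA1, the entry step, fell by 0.88 and 0.92. ABA1, the zeaxanthin epoxidase gene, whose pathway also leads to abscisic acid, fell by 1.23 ± 0.10. Of 29 light signalling genes 10 were lower and 2 higher; SIG5, a plastid sigma factor, fell by 0.71, and ELIP1, a protective antenna relative, rose by 0.79. The lower count was 6 in a fit of the 6 libraries alone. Shares over all genes tested were 9.89% lower and 19.5% higher.

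Cold-regulated genes rose. Many of these encode hydrophilic proteins that protect membranes and proteins when cells lose water, and many are switched on by the CBF factors in the cold and also by drought. Of 12 tested, 9 were higher and 1 lower, with a median of 0.88. RD29A had 240, 197 and 191 RPKM at 2 h, against 39.1, 40.7 and 34.1 RPKM at 0 h (2.43 ± 0.09, limma adjusted p = 1.5e-11). COR15B, a chloroplast-protecting protein, had 100, 83.3 and 77.4 RPKM at 2 h, against 19.3, 21.4 and 17.7 RPKM at 0 h (2.10 ± 0.09). The dehydrin ERD10 had 287, 301 and 300 RPKM at 2 h, against 106, 90.4 and 93.8 RPKM at 0 h (1.61 ± 0.09), and COR413-PM1 was higher by 1.16. In all 4 genes each 2 h library exceeded each 0 h library. These 4 were named for their small adjusted p, and the 2 groups did not overlap for 36.8% of all genes tested. The 1 lower gene was CBF2, at a mean of 0.611 ± 0.0396 RPKM at 2 h, against 1.72 ± 0.233 RPKM at 0 h, named after its value was seen and kept for testing through its 0 h libraries alone. At 4 h in solvent RD29A averaged 56.4 ± 5.02 RPKM, and with GR24 4DO for 2 h it averaged 211 ± 12.01 RPKM. Of the abscisic acid genes, 6 of 21 were lower and 4 higher: the dehydrin gene RAB18 fell by 1.01 ± 0.11, and CYP707A1, which breaks the hormone down, rose by 0.56. Without ABI5, kept for testing through its 2 h libraries alone, 6 of 20 were lower and 3 higher. All genes tested had 19.5% higher and 9.89% lower.

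Heat shock genes also rose, with 12 of 16 higher, 0 lower and a median of 0.67. HSP70-2, a cytosolic chaperone, had 85.8, 87.1 and 84.1 RPKM at 2 h, against 32.5, 35.9 and 34.0 RPKM at 0 h (1.30 ± 0.06, limma adjusted p = 3.1e-10). HSP70 had 165, 153 and 149 RPKM at 2 h, against 77.5, 80.3 and 74.3 RPKM at 0 h (1.00 ± 0.05). HSP90.1 and the mitochondrial small heat shock protein gene HSP23.6-MITO were higher by 1.26 ± 0.15 and 1.12 ± 0.12. Genes RefSeq names as heat shock proteins overlap this list in part and had 9 of 13 higher and 0 lower, among them the organelle chaperones Hsp89.1 (0.78) and HSP60 (0.70). Genes of the unfolded protein response, the chaperones of the endoplasmic reticulum, had 8 of 19 higher and 0 lower, all small: CNX1 was higher by 0.38, SDF2 by 0.38, BIP2 by 0.35 and PDIL1-1 by 0.31. That count was 5 without replicate 3 of 0 h. For comparison with these chaperone counts, 19.5% of all genes tested were higher and 9.89% lower.

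Jasmonate is the wound hormone; 16 of 23 genes of its synthesis and response were higher and 1 lower, with a median of 0.34, and with near-alike replicates averaged 13 were higher. CYP94C1, which oxidises the active hormone, had 24.1, 24.97 and 26.3 RPKM at 2 h, against 11.5, 11.5 and 11.3 RPKM at 0 h (1.08 ± 0.06, limma adjusted p = 9.0e-10). The synthesis genes AOC2 and LOX2 were higher by 0.82 ± 0.07 and 0.51 ± 0.06, and the storage protein VSP2 was lower by 0.60. Of the JAZ and TIFY repressors, 6 of 13 were higher and 0 lower, with JAZ10 at 0.53 ± 0.09, and with median-of-ratios scaling 5 were higher and 2 lower. JAZ8, in both sets, was kept for testing through its 2 h libraries alone. Without it 15 of 22 jasmonate genes were higher and 1 lower, and 5 of 12 repressors were higher and 0 lower.

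Of 31 auxin genes, 18 were lower and 0 higher, with a median of -0.31, and with near-alike replicates averaged 14 were lower. GH3.6, which conjugates auxin to amino acids, had 12.6, 14.7 and 14.5 RPKM at 2 h, against 21.7, 23.6 and 24.6 RPKM at 0 h (-0.70 ± 0.07, limma adjusted p = 1.0e-06). GH3.2 of the same family and the repressor gene IAA29 fell by 0.91 and 0.90, and IAA7 by 0.50. Of 13 SAUR genes, small auxin-induced promoters of cell expansion, 9 were lower and 0 higher; SAUR15 and SAUR24 both fell by 0.68. The SAUR count was 4 without replicate 2 of 2 h or replicate 3 of 0 h, 5 without replicate 3 of 2 h or replicate 1 of 0 h, and 5 with near-alike replicates averaged, and near-identical SAUR genes may share reads. SAUR19, in both sets, was kept for testing through its 0 h libraries alone. Without it 17 of 30 auxin genes and 8 of 12 SAUR genes were lower, with 0 higher in each.

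Of 19 ethylene genes, 10 were lower and 0 higher, with a median of -0.26, and with near-alike replicates averaged 8 were lower. ACO4, an ethylene-forming enzyme, had 285, 284 and 278 RPKM at 2 h, against 494, 550 and 484 RPKM at 0 h (-0.85 ± 0.07, limma adjusted p = 1.3e-07). ARGOS, which is induced by ethylene and auxin, and the receptor gene ERS2 fell by 0.76 and 0.45. Of 19 ethylene response factor genes, 8 were lower and 1 higher; ERF6 fell by 0.49 ± 0.07. That count of 8 was 3 without replicate 3 of 2 h or replicate 1 of 0 h, 4 without replicate 2 of 2 h and 3 with near-alike replicates averaged.

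Of 16 gibberellin genes, 9 were higher and 1 lower. Without GA20OX1, kept for testing through its 2 h libraries alone, 8 of the other 15 were higher and 1 lower. The lower one was GASA6, with 34.1, 46.4 and 48.3 RPKM at 2 h, against 117, 138 and 150 RPKM at 0 h (-1.64 ± 0.11, limma adjusted p = 1.2e-08), a small peptide gene induced by gibberellin. Both GA3OX1, which makes the active hormone, and GA2OX2, which inactivates it, were higher, by 0.84 ± 0.11 and 0.58 ± 0.08. Of 12 brassinosteroid genes, 3 were higher and 1 lower; the synthesis gene BR6OX2 was higher by 0.58 and BEE1, an early response gene, fell by 0.86, and 3 were lower without replicate 2 of 0 h. Of 16 cytokinin genes, 4 were higher and 2 lower, and 1 was higher without replicate 2 of 2 h, 1 without replicate 1 or 3 of 0 h and 2 without replicate 2 of 0 h. With median-of-ratios scaling 0 of them were higher. Salicylic acid genes had 2 of 15 higher and 3 lower, with SARD1, a regulator of its synthesis, higher by 0.59 and the defence gene PR1 lower by 0.55. Beside these hormone counts, 19.5% of all genes tested were higher and 9.89% lower.

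Early touch and wound response genes, which flare within minutes of handling, had 11 of 23 lower and 4 higher at 2 h, with a median of -0.25. WRKY53, a senescence and defence factor, had 5.45, 6.47 and 7.09 RPKM at 2 h, against 11.8, 13.2 and 12.4 RPKM at 0 h (-0.88 ± 0.09, limma adjusted p = 1.7e-06). CYP81F2 and SZF1 fell by 0.67 and 0.47, and ERF109, at 1.10, 1.18 and 1.13 RPKM at 2 h, against 0.539, 0.177 and 0.216 RPKM at 0 h, was called higher but was kept for testing through its 2 h libraries alone. Of 51 WRKY genes 10 were lower and 8 higher, where all genes tested had 9.89% lower and 19.5% higher. The higher WRKY count was 13 without replicate 1 of 2 h and 5 with near-alike replicates averaged. Without WRKY62, kept for testing through its 2 h libraries alone, 10 of 50 were lower and 7 higher. Among the lower ones WRKY45 and WRKY75 fell by 0.91 and 0.71. Hypoxia and fermentation genes, which respond to low oxygen as in flooded tissue, had 5 of 19 lower and 2 higher. Among them HB1, a non-symbiotic haemoglobin, fell by 0.74 ± 0.08 and PDC2, pyruvate decarboxylase, was higher by 0.35. The lower count was 3 without replicate 1 or replicate 3 of 2 h. Without NIP2;1, kept for testing through its 0 h libraries alone, 4 of 18 hypoxia genes were lower and 2 higher.

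Sugar starvation genes had 6 of 18 lower and 1 higher: SEN1 had 9.79, 11.8 and 11.1 RPKM at 2 h, against 34.4, 40.6 and 36.7 RPKM at 0 h (-1.69 ± 0.13), and ASN1, asparagine synthetase, fell by 1.29 ± 0.08 (limma adjusted p = 6.3e-09). SWEET15 was kept for testing through its 0 h libraries alone, and without it 5 of 17 were lower and 1 higher. Of 32 starch and sugar genes, 16 were higher and 4 lower, and with median-of-ratios scaling 11 were higher and 9 lower. In the reported fit 19.5% of all genes tested were higher and 9.89% lower. Higher were PWD, a starch kinase of breakdown, by 0.95, the phosphorylase PHS2 by 0.88 and the branching enzyme SBE2.1 by 0.73, while GBSS1, which makes amylose and is a known clock target, fell by 1.03 ± 0.07.

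Nitrate genes had 9 of 24 lower and 3 higher, and 14 were lower with gene length trends removed. Without NRT2.5, kept for testing through its 2 h libraries alone, 9 of 23 were lower and 2 higher. The nitrate reductase NIA2 had 260, 311 and 316 RPKM at 2 h, against 479, 574 and 616 RPKM at 0 h (-0.91 ± 0.10), and the transporter NRT1.5 fell by 0.58. BT2, a scaffold protein that follows sugar and nitrogen supply, was higher by 1.14 ± 0.06 (limma adjusted p = 2.0e-09). Phosphate genes had 7 of 16 higher and 0 lower, with PHT1;4, a transporter, higher by 0.50, and 4 were higher with near-alike replicates averaged. Sulfur starvation genes had 7 of 20 higher and 3 lower: the root sulfate transporter SULTR1;2 was higher by 0.72 and SERAT2;1, of cysteine synthesis, fell by 0.91 ± 0.06. The higher count was 4 without replicate 2 of 2 h or replicate 1 of 0 h. Iron genes had 7 of 19 higher and 5 lower, and FER1, the iron-storing ferritin, had 46.5, 41.1 and 41.1 RPKM at 2 h, against 95.7, 89.1 and 89.1 RPKM at 0 h (-1.07 ± 0.06, limma adjusted p = 1.7e-09). Beside these nutrient counts, 19.5% of all genes tested were higher and 9.89% lower.

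In secondary metabolism, flavonoid and anthocyanin genes had 7 of 15 higher and 2 lower. Flavonol synthase FLS1 and chalcone synthase CHS were higher by 0.69 ± 0.06 and 0.52 ± 0.06, and the repressor MYBL2 had 23.6, 34.7 and 36.0 RPKM at 2 h, against 67.2, 52.7 and 74.5 RPKM at 0 h (-1.03 ± 0.14). CHS averaged 236 RPKM in solvent at 4 h. Glucosinolate synthesis genes had 11 of 27 lower and 0 higher, by no more than 2-fold; SOT16 and CYP83B1 fell by 0.50 and 0.52. UDP-glycosyltransferases had 11 of 47 higher and 12 lower, with the flavonol enzyme UGT78D3 at 1.43, 1.61 and 1.53 RPKM at 2 h, against 0.230, 0.224 and 0.226 RPKM at 0 h. Cytochrome P450 genes had 24 of 134 higher and 28 lower, where all genes tested had 19.5% higher and 9.89% lower, with the sterol enzyme CYP710A3 higher by 1.16 ± 0.10. UGT78D3 and CYP710A3 were kept for testing through their 2 h libraries alone. Without all genes kept through 1 group alone, 9 of 45 UDP-glycosyltransferases were higher and 12 lower. For cytochrome P450 genes this left 23 of 131 higher and 27 lower.

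The libraries compared here are also the solvent side of the GR24 4DO experiment, so strigolactone and karrikin genes are given by name. Of 17 tested, 6 were higher at 2 h and 1 lower, beside 19.5% and 9.89% of all genes tested. With near-alike replicates averaged 4 were higher and 0 lower. DLK2, a relative of the receptors and a marker of the response, had 23.2, 26.7 and 24.7 RPKM at 2 h, against 10.1, 9.39 and 10.1 RPKM at 0 h (1.25 ± 0.06, limma adjusted p = 8.3e-10). BBX20, another such marker, had 12.8, 15.7 and 16.4 RPKM at 2 h, against 5.25, 3.56 and 4.98 RPKM at 0 h (1.52 ± 0.11). The strigolactone receptor gene D14 had 76.7, 70.7 and 67.8 RPKM at 2 h, against 44.2, 39.9 and 42.4 RPKM at 0 h (0.75 ± 0.07), and SMAX1, a repressor of the karrikin pathway, was higher by 0.42 ± 0.06. In these 4 genes no 2 h library overlapped the 0 h range, with no strigolactone analogue added. Libraries of the 2 groups did not overlap for 36.8% of all genes tested.

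The karrikin receptor gene KAI2 had 53.4, 46.9 and 46.2 RPKM at 2 h, against 50.4, 46.3 and 45.5 RPKM at 0 h, overlapping groups with a difference of 0.04 ± 0.06. MAX2, the F-box gene shared by both pathways, had 18.1, 19.2 and 17.97 RPKM at 2 h, against 23.6, 21.0 and 22.6 RPKM at 0 h, a call (-0.27 ± 0.08, limma adjusted p = 0.017) that was lost without replicate 3 of 2 h (limma adjusted p = 0.057), without replicate 1 of 0 h (limma adjusted p = 0.066) and with near-alike replicates averaged (limma adjusted p = 0.058). The repressor genes SMXL6, SMXL7 and SMXL8 differed by 0.15, 0.14 and -0.02 with no call, and SMXL6 was called higher without replicate 2 of 0 h (limma adjusted p = 0.0077). After 2 h of GR24 4DO, DLK2 averaged 45.7 ± 1.98 RPKM, BBX20 31.6 RPKM and D14 56.9 ± 3.92 RPKM, and after 4 h in solvent DLK2 averaged 14.4 ± 0.360 RPKM and D14 42.9 ± 1.86 RPKM (SD, n = 3 each).

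Genes RefSeq names as cytosolic ribosomal proteins had 24 of 47 higher and 0 lower, with a median of 0.24, but with median-of-ratios scaling 9 were higher and 2 lower, and in a fit of the 6 libraries alone 13 were higher. Of 34 cell cycle genes 8 were higher, beside 19.5% of all genes tested, and 0 lower, and with near-alike replicates averaged 5 were higher. The replication genes MCM5 and PCNA1 were higher by 0.66 and 0.49. Expansins, which loosen cell walls, had 12 of 23 higher and 4 lower, and with median-of-ratios scaling 6 higher and 4 lower; EXPA8 and EXPA11 fell by 1.18 and 0.90, and EXPA6 was higher by 0.43. Xyloglucan-modifying XTH genes had 6 of 26 higher and 5 lower, beside 19.5% and 9.89% of all genes tested. Only 3 of them were higher without replicate 3 of 2 h or replicate 2 of 0 h. XTH32 had 71.4, 73.6 and 75.9 RPKM at 2 h, against 25.8, 22.6 and 26.4 RPKM at 0 h (1.53 ± 0.08, limma adjusted p = 6.5e-10).

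Among other families, B-box factors had 4 of 14 higher and 5 lower, of which 2 were kept for testing through their 0 h libraries alone, and BBX14 was higher by 0.69. Tau glutathione S-transferases had 10 of 25 lower and 2 higher, and 5 were lower without replicate 3 of 2 h, 6 without replicate 2 of 2 h or replicate 1 of 0 h, and 3 with near-alike replicates averaged. GSTU16 fell by 1.01 ± 0.10. NAC factors had 7 of 48 lower and 5 higher, where all genes tested had 9.89% lower and 19.5% higher. Without NAC100, kept for testing through its 2 h libraries alone, 7 of 47 were lower and 4 higher. NAC6, a leaf ageing factor, fell by 0.97 ± 0.06, and the higher count was 1 or 2 without any 1 of the 6 libraries but replicate 1 of 2 h. Aquaporins had 3 of 8 lower and 2 higher, calmodulin-like proteins 3 of 7 higher and 0 lower, and CC-type glutaredoxins 1 of 4 lower and 0 higher.

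Of 26 shoot markers tested 9 were higher and 2 lower, and 5 were higher with replicate 2 or 3 of 2 h or replicate 1 of 0 h left out and with median-of-ratios scaling. The guard cell factor FAMA was higher by 0.57 and LHCB1.2, an antenna gene on the same list, fell by 1.12. Summed over 29 genes, shoot markers were at 14280 to 14600 RPKM at 2 h, against 18150 to 22060 RPKM at 0 h; without LHCB1.2 and RBCS1A the sums were 796 to 989 RPKM at 2 h, against 682 to 816 RPKM at 0 h. Root markers had 4 of 23 lower and 2 higher, with sums of 422 to 525 RPKM at 2 h and 472 to 563 RPKM at 0 h, and EXPA25 was at 0 in all 6 libraries. The quiescent centre gene WOX5 had 2.04, 1.64 and 2.00 RPKM at 2 h, against 0.647, 0.982 and 0.759 RPKM at 0 h, and was kept for testing through its 2 h libraries alone, and the endodermis gene CASP1 fell by 0.48 ± 0.12. With median-of-ratios scaling 8 root markers were lower. Vascular markers had 2 of 22 higher and 2 lower, or 1 higher and 5 lower with median-of-ratios scaling, and sums of 285 to 314 RPKM at 2 h and 286 to 312 RPKM at 0 h, and LHW was at 0 in all 6 libraries. Beside these marker counts, 19.5% of all genes tested were higher and 9.89% lower.

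**Figure D5:**
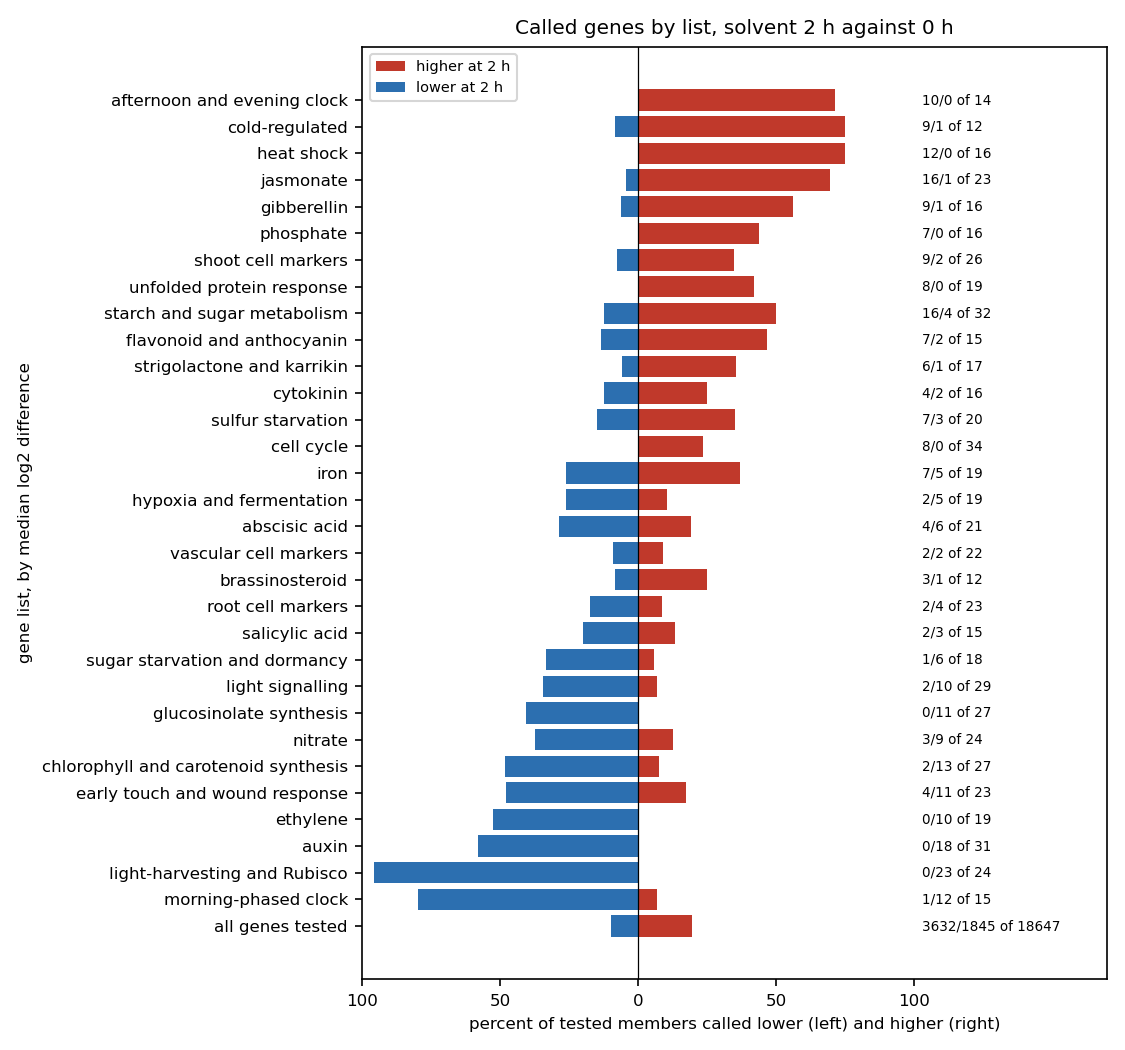
Percent of the tested members of each gene list called lower (left, blue) and higher (right, red) at 2 h against 0 h, ordered by the list's median log2 difference, with counts of higher and lower of all tested at the right and all genes tested in the lowest bar. Evening clock, cold-regulated, heat shock and jasmonate genes lie to the right and light-harvesting, morning clock, auxin and ethylene genes to the left.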

How the data were processed

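Total RNA of whole seedlings was extracted with Trizol, made into libraries by standard Illumina steps and sequenced on an Illumina HiSeq2000, per the labels. Per the submitters' processing notes, STAR, featureCounts and DESeq were used with the TAIR10 build; for versions, the strand of counting and multiply mapped reads, the answer is not given in the sources used here. The deposited values are RPKM per gene for each library, made by the authors. The values of 25980 genes came out as whole reads within a tolerance of 0.02, which gave the library depths.

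Groups were taken from the labels. RPKM was tested as log2(RPKM + 1) with limma 3.58.1 (R 4.3.3), with trend, on all 15 libraries in 5 groups, the contrast being solvent 2 h minus solvent 0 h, and p-values adjusted by Benjamini-Hochberg over the 18647 genes with at least 1 RPKM in at least 3 of the 6 libraries. Genes not reaching this filter, in the lists too, were not tested. Named genes are the 12 highest and 12 lowest called differences whose libraries do not overlap, up to 4 called genes of each list or family with the smallest adjusted p (up to 6 of each clock list), and all members of the clock lists, D14, DLK2, KAI2, MAX2 and SMXL6 to SMXL8. Further light-harvesting and Rubisco genes and CBF2 were named after their values were seen. Members and lists were chosen with earlier results of these data known. Promoters were read from TAIR10.1 with RefSeq annotation, whose gene starts may differ from those of the authors' annotation. Other pseudocounts, filters, scalings, a replicate block, voom, averaging of near-alike replicates and leaving out each replicate were tried. Some items the naming rule would give are not reported here.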

Additional observations from a re-analysis of the deposited data

How the results depend on the processing

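Across 18 settings tried beside the one reported, the 5477 genes called became 3455 (2169 higher) with only the 6 libraries in the fit. They became 3453 (2172 higher) with near-alike replicates averaged. There were 2177 higher with median-of-ratios scaling and 2770 lower with gene length trends removed. Apart from the 18, also requiring a difference of at least 2-fold in the reported fit left 170 (76 higher and 94 lower). A pseudocount of 0.1 gave 134 genes 2-fold higher and 149 lower, and voom on recovered reads 144 and 156. Leaving out 1 replicate gave 4074 to 5860 genes called, 2622 to 3993 higher and 1452 to 1869 lower, with 76 to 93 at least 2-fold higher and 89 to 100 at least 2-fold lower. The cause of these shifts was not tested. With a replicate block 6641 genes were called over all 15 libraries and 5266 over the 6. Same-numbered libraries of 2 h and 0 h deviated from their group means with correlations of 0.327, -0.0863 and 0.517. Replicate 2 of 2 h and replicate 3 of 0 h had 0.39, and the labels do not say whether a number marks a shared batch. Whether the numbers pair the samples is thus not settled. Of 227 named genes called, 18 lost the call in at least 1 setting and 1 changed sign, RBCS3B, at 0.12 with quantile normalization, which gives the genes at the top of every library the same values by rank; RVE1 was lost without replicate 2 of 2 h (limma adjusted p = 0.081). Counts of list members stayed within 1.5 times in 1483 cases and moved further in 209, many of them counts of 1 or 2 genes. A filter at 5 RPKM, which tests fewer genes, left 6 morning-phased genes lower. Depth limits the low genes, such as CCA1 and LHY at 2 h.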
